A study of Mus musculus with 5 samples.

Results

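The cells described here are myeloid cells of mouse ventral skin that carry much mRNA for Retnla, Ear2 or Lyz1 and little for the C1q and Pf4 genes of resident macrophages. They were found by gating single-cell transcriptomes rather than by clustering. The cells were chosen by the measured UMI shares of 14 genes. Barcodes were kept with at least 300 genes and at most 10% of UMIs of mitochondrial origin. A kept cell was taken as a member when Retnla, Ear2 and Lyz1 together made up at least 0.3% of its UMIs and when it held at least 1 UMI of Lyz2 and 1 of Tyrobp or Fcer1g. C1qa, C1qb, C1qc and Pf4 together had to stay under 0.5%, and Col1a1, Col1a2, Col3a1 and Dcn together under 1%. Of 10611 kept cells, 641 met the rule, from 11084 barcodes in all. These cells were proposed as monocyte-derived macrophages. They are called Retnla/Ear2/Lyz1 cells below, because several genes that define circulating monocytes were nearly absent from them.

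The study compared Ikkb_cKO mice, of the genotype Prx1Cre+Ikkbf/f, with wild-type (WT) mice. All were C57BL/6J at postnatal day 28, and both groups gave ventral skin that was digested to single cells, sorted for DAPI-negative singlets and run on the 10x 3' v2 platform. There were 3 Ikkb_cKO and 2 WT libraries, each from a pool of 2 mice. Ikkb encodes IKK beta, a kinase that activates NF-kB. Prx1Cre is driven by an enhancer of Prrx1, which is known to act in limb and body-wall mesenchyme and not in myeloid cells, so the Retnla/Ear2/Lyz1 cells are not the lineage in which the transgene is known to delete Ikkb. Neither a group with the Cre alone nor one with the floxed allele alone was analysed here. P-values measure the spread between libraries, which may be technical.

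Skin holds macrophages of several origins. Blood monocytes that enter the dermis can become macrophages or antigen-presenting cells, and type 2 cytokines such as IL-4 and IL-13, acting through STAT6, turn on genes of the alternative programme. Retnla, which encodes the secreted protein RELM alpha, is a classic target of that programme in mouse macrophages. Ear2 encodes an eosinophil-associated ribonuclease that monocytes also express, and Lyz1 and Lyz2 encode lysozyme. Tyrobp and Fcer1g encode signalling adaptors of myeloid receptors, and C1q and Pf4 transcripts mark resident macrophages. Lyz1 and Lyz2 are near-identical copies, as are members of the Ear family, so the counting could have divided reads between copies.

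The libraries held from 918 to 2369 kept cells in Ikkb_cKO, and 3088 and 3252 in WT. They gave 50, 70 and 185 Retnla/Ear2/Lyz1 cells in Ikkb_cKO and 163 and 173 in WT, with 94441 to 614496 summed UMIs in Ikkb_cKO and 638639 and 695934 in WT. The depth differed by genotype. The median member held 1330, 1533 and 2567 UMIs in the Ikkb_cKO libraries, against 3252 and 3306 in WT, and 3.21, 2.53 and 3.44% of its UMIs were mitochondrial in Ikkb_cKO, against 2.30 and 2.20% in WT. Genotype differences were recomputed with the gate applied to cells thinned to 1000 UMIs, shallower cells left out, and with equal cell numbers. The thinning only chose the cells, and the counts summed for the test were at full depth. Neither fit matches UMIs per cell. At an adjusted p under 0.05 in edgeR, 271 genes were higher and 271 lower in Ikkb_cKO with the gate at 1000 UMIs, and 178 and 176 with equal cell numbers, against 325 (5.90%) and 356 (6.46%) of 5513 genes in the fit described below. Kept barcodes were shared 60 times between library pairs, and none was a member in both.

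Members made up 5.08, 7.63 and 7.81% of kept cells in the 3 Ikkb_cKO libraries, against 5.28 and 5.32% in WT. Ikkb_cKO library 1 lay below both WT libraries and the other two lay above them, so the groups overlapped. The mean was 6.84% ± 1.52 (SD, n = 3) in Ikkb_cKO and 5.30% ± 0.0292 (SD, n = 2) in WT, a log2 difference of 0.38 (SE 0.23, adjusted p = 0.282 in edgeR's quasi-likelihood test on cell numbers). The exact two-sided permutation test over the 10 splits gave p = 0.4, where the smallest possible is 0.1. Without Ikkb_cKO library 1 the log2 difference was 0.54 and its adjusted p in edgeR was 0.00642. A share of this kind depends on how well each cell type survives digestion and enters droplets.

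Within a gate on Lyz2, which does not hold all myeloid cells, the picture was different. Among cells gated on Lyz2, on Tyrobp or Fcer1g and on low collagen alone, Retnla/Ear2/Lyz1 cells were 52.1, 57.4 and 38.3% in Ikkb_cKO and 20.1 and 20.4% in WT. The 3 Ikkb_cKO libraries all lay above both WT libraries, with a log2 difference of 1.22 (SE 0.22, edgeR adjusted p = 0.00272) and p = 0.1 in the exact permutation test, the smallest that 5 libraries allow. The gate held 96, 122 and 483 cells in Ikkb_cKO and 812 and 848 in WT, some of them high in MHC class II genes. Of the MHC class II high cells, 53.2, 46.7 and 86.7% held a Lyz2 UMI in Ikkb_cKO and 92.4% in WT library 1. The gate thus left out more of them in Ikkb_cKO than in that library, and the part of this in the shares was not tested. Another set of that gate were the C1q/Pf4 macrophages, which pass it with C1q and Pf4 transcripts at 0.5% or more. They numbered 6, 17 and 79 in Ikkb_cKO libraries and 488 and 501 in WT libraries. Their share of kept cells was 0.610, 1.85 and 3.33% in Ikkb_cKO, against 15.8 and 15.4% in WT, a log2 difference of -2.89 (SE 0.55, edgeR adjusted p = 0.0195). Cells high in MHC class II genes without either signature were 6.30, 4.90 and 9.50% of kept cells in Ikkb_cKO and 4.70 and 4.92% in WT, which overlapped.

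**Figure D1:**
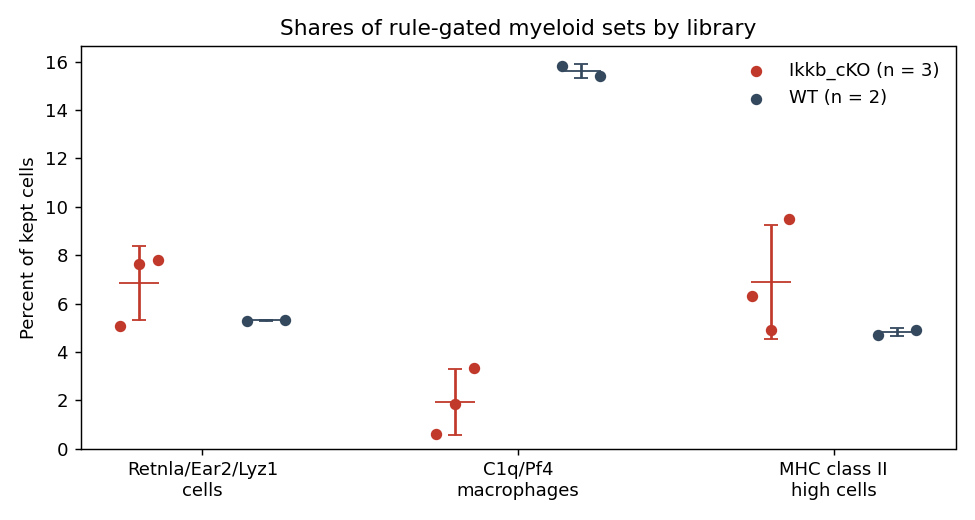
Percent of kept cells in 3 gated myeloid sets, 1 point per library, with the mean (horizontal bar) and SD (vertical bar) for Ikkb_cKO (red) and WT (dark). The C1q/Pf4 set lies between 0.610 and 3.33% in Ikkb_cKO and at 15.4 and 15.8% in WT, while the Retnla/Ear2/Lyz1 set overlaps between genotypes.

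Retnla was the gene that admitted most members. On its own it reached the cut in 98.0, 100 and 85.9% of members in Ikkb_cKO and in 81.6 and 86.1% in WT. Of all 641 members, 81 depended on Ear2 or Lyz1. The values next to the cut were 0.2995% just outside and 0.3040% just inside. Between 0.1 and 0.2% lay 94 cells, between 0.2 and 0.3% lay 51, between 0.3 and 0.4% lay 36 and between 0.4 and 0.5% lay 34. The numbers thus declined across the cut without a gap at it. Between 0.5 and 1% were 86 members and above 1% were 485. Of 1179 cells that met every condition other than the upper bound on C1q and Pf4, 585 were under 0.25%, 56 between 0.25 and 0.5%, 101 between 0.5 and 1% and 437 above 1%. Cells beyond that bound lay closer to it in Ikkb_cKO. Between 0.5 and 1% were 3, 7 and 39 cells in the Ikkb_cKO libraries and 15 and 37 in WT, and above 1% were 3, 9 and 14 in Ikkb_cKO and 208 and 203 in WT. With the bound at 1% the C1q/Pf4 set would be 0.305, 0.980 and 0.929% of kept cells in Ikkb_cKO and 15.0 and 13.8% in WT.

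The 3 genes were mixed differently in the genotypes. Summed over members, Retnla stood at 30739, 32688 and 21300.4 CPM (UMIs scaled to a common library total) in Ikkb_cKO, against 17431 and 15204 in WT. Lyz1 stood at 487, 743 and 915 CPM in Ikkb_cKO and at 3168 and 3085 in WT. Ear2 was at 995, 1356 and 1460 CPM in Ikkb_cKO and at 1912 and 1852 in WT, and Lyz2 at 4638, 6200.4 and 6347 in Ikkb_cKO and at 10449 and 10666 in WT. None of the 4 genes overlapped between genotypes, and only Retnla was higher in Ikkb_cKO. Of all 5513 genes tested in the members, 18.0% lay above and 21.3% below both WT libraries in every Ikkb_cKO library. These genes chose the cells, so their levels among members are a description and no test is given.

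A Lyz1 UMI was seen in 30.0, 21.4 and 43.2% of members in Ikkb_cKO and in 76.7 and 75.7% in WT. With every cell thinned to 1000 UMIs, which kept 248 of 305 members in Ikkb_cKO and 308 of 336 in WT, the shares were 18.9, 21.2 and 36.5% in Ikkb_cKO and 68.9 and 63.1% in WT. Every Ikkb_cKO library lay below both WT libraries at both depths. In cells of a fibroblast gate, which should lack the gene, at most 0.394% held a Lyz1 UMI in any library, at median depths of 1547 to 5206 UMIs. Retnla UMIs were found in 2.67 to 5.53% of those fibroblast-gated cells. All 3 genes were detected together in 24.0, 17.1 and 30.8% of members in Ikkb_cKO and in 62.6 and 65.3% in WT.

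Retnla, Ear2, Lyz1, the C1q genes and Pf4 could be tested in the Lyz2 gate, which did not use them to choose cells. Lyz2 could not, because each cell of that gate holds at least 1 of its UMIs. Of 8892 genes tested there, 8.03% were higher and 8.99% lower in Ikkb_cKO at an adjusted p under 0.05 in edgeR, 17.0% in all. Lyz1 fell, at 309 ± 111 TMM-normalised CPM in Ikkb_cKO (SD, n = 3) and 932 ± 28.7 in WT (SD, n = 2), or -1.57 on the log2 scale (SE 0.24, edgeR adjusted p = 0.00124). Retnla, at 14404 ± 6537 CPM in Ikkb_cKO and 9001 ± 25.2 in WT, was not past the threshold, with a log2 ratio of 0.68 (SE 0.32, edgeR adjusted p = 0.193), although it was without the filter on low counts (log2 0.61, adjusted p = 0.000461). Ear2 was at 0.10 (SE 0.22, edgeR adjusted p = 0.791). C1qa, C1qb, C1qc and Pf4 fell by 3.54, 3.66, 4.16 and 3.91 on the log2 scale, beside the lower number of C1q/Pf4 macrophages given above.

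Retnla was not particular to these cells. C1q/Pf4 macrophages held 44977, 92318 and 27386 CPM of it in Ikkb_cKO and 10599 and 11797 in WT. Ear2 and Lyz1 separated the sets more clearly. Ear2 ranged from 105 to 607 CPM in the C1q/Pf4 macrophages and Lyz1 from 0 to 387, and every library had more of both genes in its Retnla/Ear2/Lyz1 cells. In MHC class II high cells Retnla ranged from 84.2 to 621 CPM, and in all other kept cells from 61.0 to 254 CPM. The rule chose the members by these genes and kept them out of the other sets, so these levels are only a description.

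The name was then set against markers. Of 15 monocyte markers, 7 had a median of at least 100 CPM in the members, as did 7 in the C1q/Pf4 macrophages and 8 in MHC class II high cells. Ccr2, the receptor by which monocytes leave the marrow and enter tissue, stood at 709, 749 and 495 CPM in Ikkb_cKO and at 418 and 435 in WT. Fn1 (fibronectin), S100a4, Cd14 and Csf1r were also present. Ly6c2, which marks classical monocytes, had at most 17.2 CPM in any library, Vcan at most 9.76 and Hp at most 6.46. The 15 monocyte markers summed to 5154 to 6465 CPM in Ikkb_cKO and to 3470.2 and 3647 CPM in WT. The same sum was 3175 to 4624 CPM in Ikkb_cKO and 2679 and 2708 in WT in the C1q/Pf4 macrophages, and 1957 to 3256 in Ikkb_cKO and 1921 and 2163 in WT in MHC class II high cells.

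Markers of granulocytes were at or near 0. Among 9 neutrophil markers outside the rule S100a8, S100a9, Ly6g, Mmp8 and Camp had no UMI in any library, and among 5 eosinophil markers Epx, Prg2, Ccr3 and Il5ra had none. Of 12 dendritic cell markers Flt3, Xcr1 and Clec9a stayed at or under 12.9 CPM. Itgax was not near 0. With cells thinned to 1000 UMIs it had 162, 115 and 126 CPM in the members of Ikkb_cKO and 72.8 and 57.3 in WT. In MHC class II high cells it had 55.6, 0 and 99 CPM in Ikkb_cKO and 36.8 and 40.5 in WT. Before thinning, the share of cells with an Itgax UMI was higher in the members in only some libraries. Cd209a, Mgl2, Irf4 and Batf3, which monocyte-derived antigen-presenting cells also express, had medians of 219, 241, 303 and 265 CPM. The 12 markers summed to 924 to 1218 CPM in Ikkb_cKO and 976 and 1077 in WT, against 1581 to 2081 in Ikkb_cKO and 2168 and 2487 in WT in MHC class II high cells. The 14 resident macrophage markers outside the rule summed to 1169 to 1696 CPM in Ikkb_cKO and to 976 and 1007 in WT. In the C1q/Pf4 macrophages the same sum was 14572 to 15681 CPM in Ikkb_cKO and 14458 and 16014 in WT. The cells were thus myeloid but nearly without the Ly6c2 mRNA of fresh classical monocytes. Their median Ccr2 and Fn1 were 495 and 2164 CPM, against 161 and 368 in the C1q/Pf4 macrophages. In all other kept cells Ccr2 had a median of 66.5 CPM and Fn1 one of 3107. The descent of the members cannot be read from these counts.

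**Figure D2:**
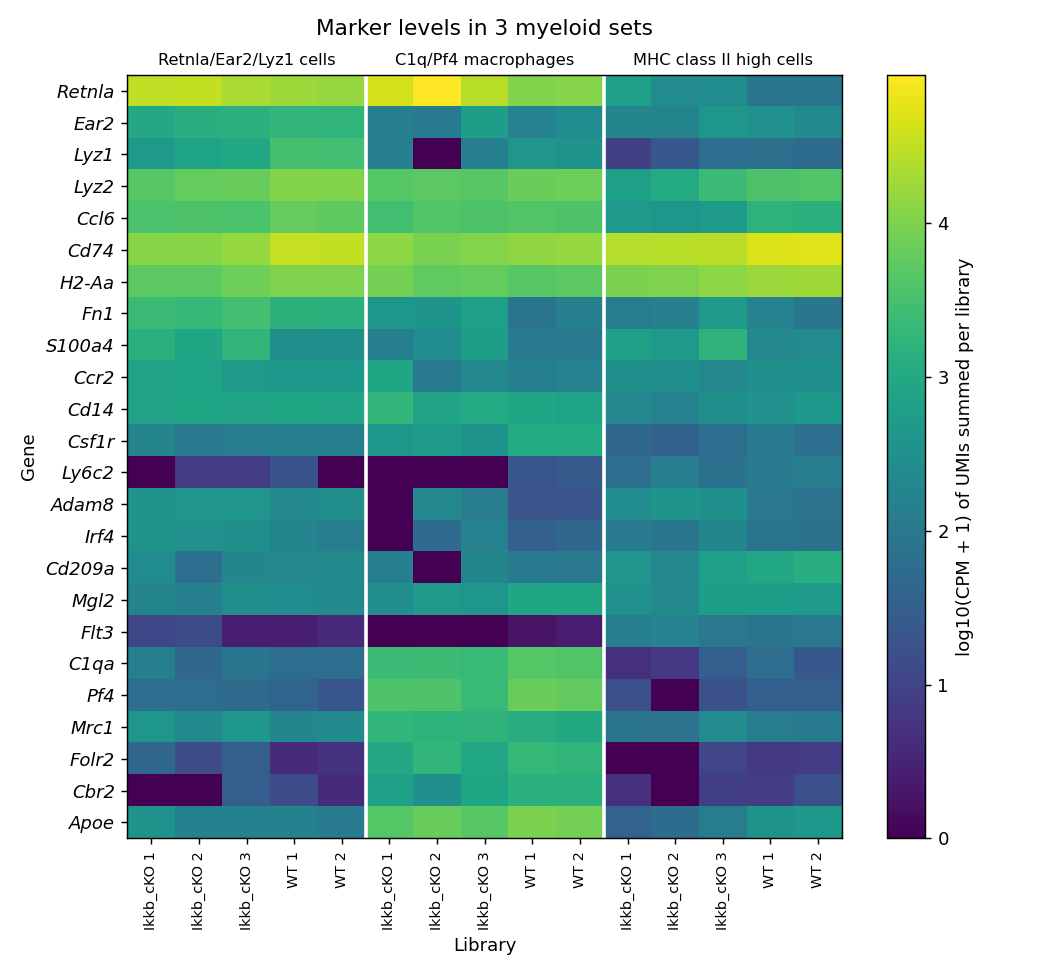
Level of 24 genes (rows) in 3 gated myeloid sets (blocks of columns), 1 column per library with Ikkb_cKO left of WT in each block, as log10 of CPM plus 1 of the summed UMIs. Retnla is bright in the first 2 sets, C1qa, Pf4, Folr2 and Apoe are brightest in the middle one, and Ly6c2 and Flt3 are dark in the first.

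The levels that set the members apart from the C1q/Pf4 macrophages are given as a description because the rule separated the sets. Adam8, a cell-surface metalloprotease of leukocytes, had a median over libraries of 360.0 CPM in the members and 18.1 in the C1q/Pf4 macrophages. Fn1 had 2164 in the members and 368 in the others, and S100a4, a calcium-binding protein of motile cells, 853 and 140.1. Irf4, a transcription factor of dendritic cells and alternatively activated macrophages, had 303 in the members and 44.4 in the C1q/Pf4 set. Cytip, an adaptor that regulates integrin adhesion, had 464 and 54.2. Each was higher in the members in 5 of 5 libraries, except Cytip in 4. Some of these transcripts were shared with MHC class II high cells, where the median was 641 CPM for Cytip, 260.1 for Adam8 and 492 for S100a4, while Fn1 had 144 and Irf4 88.5.

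The genes that ran the other way were those of resident macrophages. Folr2, the folate receptor beta, had a median of 12.9 CPM in the members and 1812 in the C1q/Pf4 macrophages. Apoe, the lipid carrier, had 149.7 in the members and 6463 in the others. Ccl8, a chemokine of dermal macrophages, had 19.4 and 3223, and Cbr2, a carbonyl reductase, 2.87 and 825. Each was lower in the members in 5 of 5 libraries.

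Genotype differences were then tested in the members themselves, on UMIs summed per library. Of 5513 genes, 325 (5.90%) were higher and 356 (6.46%) lower in Ikkb_cKO at an adjusted p under 0.05 in edgeR, and 1510 had an unadjusted p under 0.05. The 14 genes of the rule are in the fit and hold 1 of the higher and 9 of the lower calls. Of the 681 called genes, 641 (94.1%) did not overlap between genotypes. Over all genes tested, 18.0% lay above and 21.3% below both WT libraries in all 3 Ikkb_cKO libraries, and the median log2 fold change was -0.0039. Without WT library 1, 103 higher and 119 lower genes were called, and without WT library 2, 86 and 102. In those fits the lone WT library is assumed to vary like the others. Levels given with these tests are TMM-normalised CPM, and errors are SDs over 3 Ikkb_cKO and 2 WT libraries. The counts by gene list below stand beside the 5.90% higher and 6.46% lower over all genes. Without a WT library fewer genes were called in all, so the list counts of those fits stand beside lower shares. The lists share genes, among them Igf1, Vegfa, Thbs1, Cish, Ccl17 and Ccl24, so their counts are not independent.

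**Figure D3:**
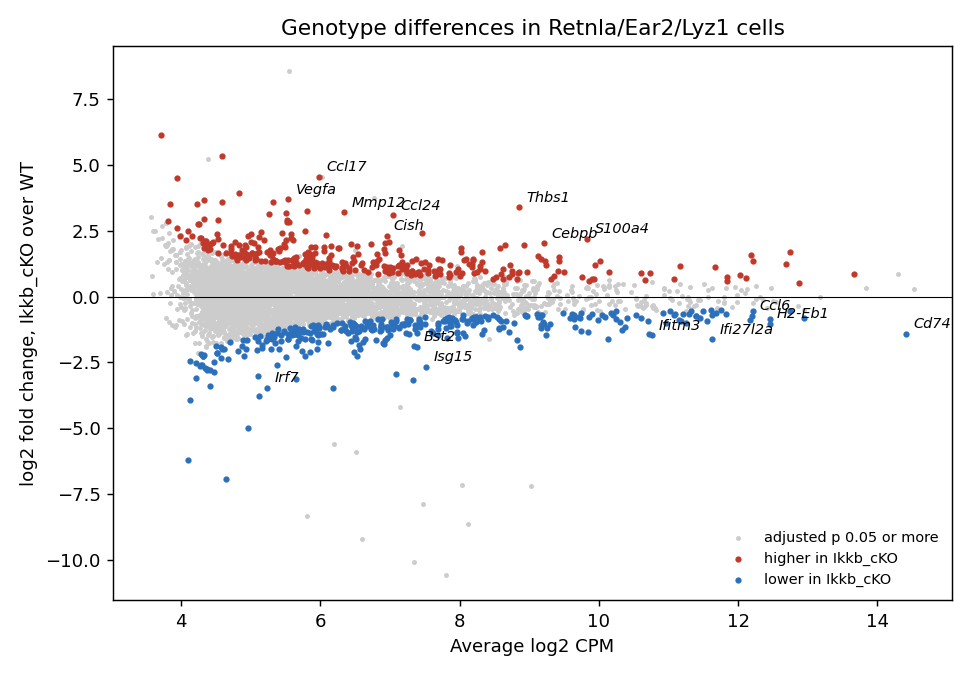
Log2 fold change (Ikkb_cKO over WT) against average log2 CPM for genes tested in Retnla/Ear2/Lyz1 cells, without the genes of the rule; red and blue points passed an adjusted p of 0.05 in edgeR. Ccl17, Vegfa and Thbs1 stand among the largest rises of well-detected genes, and Irf7, Isg15 and Cd74 among the falls.

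Among the 12 largest rises were chemokines and growth factors. Ccl17, the CCR4 ligand that attracts Th2 cells and is induced by IL-4, had 73.5, 94.2 and 147 TMM-normalised CPM in Ikkb_cKO and 6.71 and 3.03 in WT, from 7, 14 and 91 UMIs in Ikkb_cKO and 4 and 2 in WT. On the log2 scale the rise of Ccl17 was 4.55 (SE 0.48, edgeR adjusted p = 2.11e-06). The 12 were drawn only from called genes without overlap between genotypes, so the lack of overlap follows from the choice. Ccl24, eotaxin-2, which attracts eosinophils, had 178, 283 and 229.8 CPM in Ikkb_cKO and 35.2 and 19.7 in WT, or 3.09 on the log2 scale (SE 0.33, edgeR adjusted p = 2.11e-06). Both stayed past the threshold without any single library.

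A list of 27 genes of alternative activation had 22 tested members. Of these 9 rose and none fell, or 40.9% called against 12.4% over all genes, with a median log2 fold change of 0.97. Beside Ccl17 and Ccl24 these took in Igf1, an insulin-like growth factor made by repair macrophages, at 105, 74.0 and 77.7 CPM in Ikkb_cKO and 15.1 and 3.03 in WT (log2 3.17, SE 0.48, edgeR adjusted p = 9.61e-05). Cish, a SOCS-family protein that STAT5 induces and that restrains cytokine signalling, had 252, 128 and 223 CPM in Ikkb_cKO and 41.9 and 39.4 in WT (log2 2.30, SE 0.31, edgeR adjusted p = 3.59e-05). Without WT library 2 the list gave 6 of 22. Igf1, Ccl24 and Ccl8 of this list had medians of 525, 683 and 3223 CPM in the C1q/Pf4 macrophages and 71.0, 180.0 and 19.4 in the members. In the Lyz2 gate, which also holds C1q/Pf4 macrophages, Ccl24 was lower in Ikkb_cKO (log2 -1.11, SE 0.22, edgeR adjusted p = 0.00503). So was Igf1 (log2 -1.015, SE 0.22, edgeR adjusted p = 0.00819). Ccl17 and Cish were higher there (log2 4.39 and 3.13, edgeR adjusted p = 0.000888 and 8.6e-05). The summed resident macrophage markers, given above, were also higher in the members of Ikkb_cKO, and their part in the list's count was not tested. Irf4, the alternative programme's transcription factor, was at 334 ± 29.1 CPM in Ikkb_cKO (SD, n = 3) and 161 ± 38.7 in WT (SD, n = 2), or 1.03 on the log2 scale (SE 0.25, edgeR adjusted p = 0.00779), and lost its call without WT library 2 (adjusted p = 0.303).

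In the list of receptors for growth factors and type 2 cytokines 2 of 20 tested genes rose and none fell, close to the share over all genes, and 1 rose without WT library 1, WT library 2 or Ikkb_cKO library 3. Csf2rb, the shared beta chain of the GM-CSF, IL-3 and IL-5 receptors, was at 325, 289 and 613 CPM in Ikkb_cKO and 183 and 167 in WT (log2 1.31, SE 0.28, edgeR adjusted p = 0.00367). Mouse has a near copy, Csf2rb2, so its reads may be shared. Il4ra, the chain that binds IL-4, was not past the threshold (log2 1.04, SE 0.40, edgeR adjusted p = 0.0919), but was without Ikkb_cKO library 2 (adjusted p = 0.0368). Of 11 tested genes of STAT feedback 3 rose and none fell, or 27.3% called against 12.4% over all genes. Among the 3 was Pim1, a survival kinase induced by cytokines, at 928 ± 62.1 CPM in Ikkb_cKO and 368 ± 12.7 in WT (log2 1.34, SE 0.20, edgeR adjusted p = 7.53e-05).

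The promoters of Retnla and Ccl17 are shown with the palindrome TTCNNNNGAA, the spacing that STAT6 prefers, in capitals. They are RefSeq sequences of GRCm38.p6 from 250 bases before the start of the gene to 50 after, at chr16:48842359-48842658 on the plus strand and chr8:94810203-94810502 on the plus strand.
Retnla: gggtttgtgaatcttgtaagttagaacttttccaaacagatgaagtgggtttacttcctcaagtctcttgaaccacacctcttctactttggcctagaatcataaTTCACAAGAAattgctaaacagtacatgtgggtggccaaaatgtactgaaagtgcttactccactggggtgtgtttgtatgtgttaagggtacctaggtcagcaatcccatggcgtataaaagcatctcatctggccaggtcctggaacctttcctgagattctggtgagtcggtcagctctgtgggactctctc
Ccl17: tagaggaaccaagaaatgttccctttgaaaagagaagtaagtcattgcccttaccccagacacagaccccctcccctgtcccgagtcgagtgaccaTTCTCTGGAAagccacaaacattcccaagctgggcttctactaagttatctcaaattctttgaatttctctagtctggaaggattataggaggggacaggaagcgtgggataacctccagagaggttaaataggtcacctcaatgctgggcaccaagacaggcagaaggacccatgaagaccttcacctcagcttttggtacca
Each holds 1 match, 145 bases before the start of Retnla and 154 before that of Ccl17. The palindrome reads the same on both strands and occurs in 6.95% of 32851 promoters. Of the 9 genes of alternative activation that rose, 8 have a promoter entry and 2 of these hold it. A match is a description of letters, and no binding was measured.

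Of 16 tested genes of tissue repair and matrix 8 rose, 1 fell and 7 did not pass the test, with a median log2 fold change of 1.19, and 5 of 14 rose without WT library 2. Vegfa, the vascular growth factor, had 73.5, 87.5 and 89.0 CPM in Ikkb_cKO and 5.03 and 7.57 in WT (log2 3.69, SE 0.45, edgeR adjusted p = 7.27e-06). These came from 7, 13 and 55 UMIs in Ikkb_cKO and 3 and 5 in WT. Thbs1, thrombospondin-1, a matrix protein that activates latent TGF beta, had 535, 572 and 1091 CPM in Ikkb_cKO and 80.5 and 65.1 in WT (log2 3.39, SE 0.31, edgeR adjusted p = 1.9e-06). Mmp12, macrophage elastase, had 42.0, 128 and 188 CPM in Ikkb_cKO and 16.8 and 13.6 in WT (log2 3.19, SE 0.43, edgeR adjusted p = 3.84e-05). Lack of overlap between genotypes was a condition for the 12 largest rises, which hold these 3 genes, so it adds no support here. Leaving out 1 library at a time, the log2 fold change ran from 3.42 to 3.98 for Vegfa. It ran from 2.96 to 3.56 for Thbs1 and from 2.63 to 3.45 for Mmp12. Fn1 was 2539 ± 396 CPM in Ikkb_cKO and 1595 ± 123 in WT (log2 0.68, SE 0.18, edgeR adjusted p = 0.0155), but was not past the threshold without WT library 1 (adjusted p = 0.179) or WT library 2 (0.338).

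Of 17 tested genes of glycolysis and of the response to low oxygen 7 rose, none fell and 10 did not pass the test. That is 41.2% called, against 12.4% over all genes. Hk2, the hexokinase that starts glycolysis, had 185 ± 24.2 CPM in Ikkb_cKO and 52.7 ± 6.08 in WT (log2 1.80, SE 0.28, edgeR adjusted p = 0.000186). Pgk1, a later enzyme of the same path, had 402 ± 55.2 in Ikkb_cKO and 157 ± 15.6 in WT (log2 1.37, SE 0.24, edgeR adjusted p = 0.000399). Without either WT library 3 of the 17 genes rose.

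Other single genes rose by several fold. Vdr, the vitamin D receptor, had 73.5, 74.0 and 84.1 CPM in Ikkb_cKO and 11.7 and 9.08 in WT (log2 2.91, SE 0.41, edgeR adjusted p = 4.78e-05). Cebpb, a transcription factor needed by several macrophage types, had 976, 693 and 989 CPM in Ikkb_cKO and 245 and 192 in WT (log2 2.02, SE 0.22, edgeR adjusted p = 3.11e-06). S100a4 had 1385, 889 and 1779.8 CPM in Ikkb_cKO and 302 and 298 in WT (log2 2.19, SE 0.24, edgeR adjusted p = 4.53e-06). S100a4 was also higher in all other kept cells of Ikkb_cKO, at 246 to 493 CPM against 33.3 and 34.0 in WT, a level that moved with the one in the members, and whose part in it was not tested. Rnase2a, a ribonuclease of the family of Ear2, had 6, 11 and 16 UMIs in Ikkb_cKO and 2 and 2 in WT (log2 3.59, SE 0.67, edgeR adjusted p = 0.000989), and its near copies make its count uncertain.

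Among the monocyte identity genes 6 of 25 tested rose and 3 fell, while without WT library 1 the numbers were 3 and 1, without WT library 2 they were 3 and 2, and without Ikkb_cKO library 3 they were 6 and 5. Of 17 tested genes of resident macrophage identity 5 rose and none fell, and 2 rose without WT library 1, WT library 2 or Ikkb_cKO library 1. The C1q and Pf4 conditions of the rule bound, but do not remove, cells near that type.

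**Figure D4:**
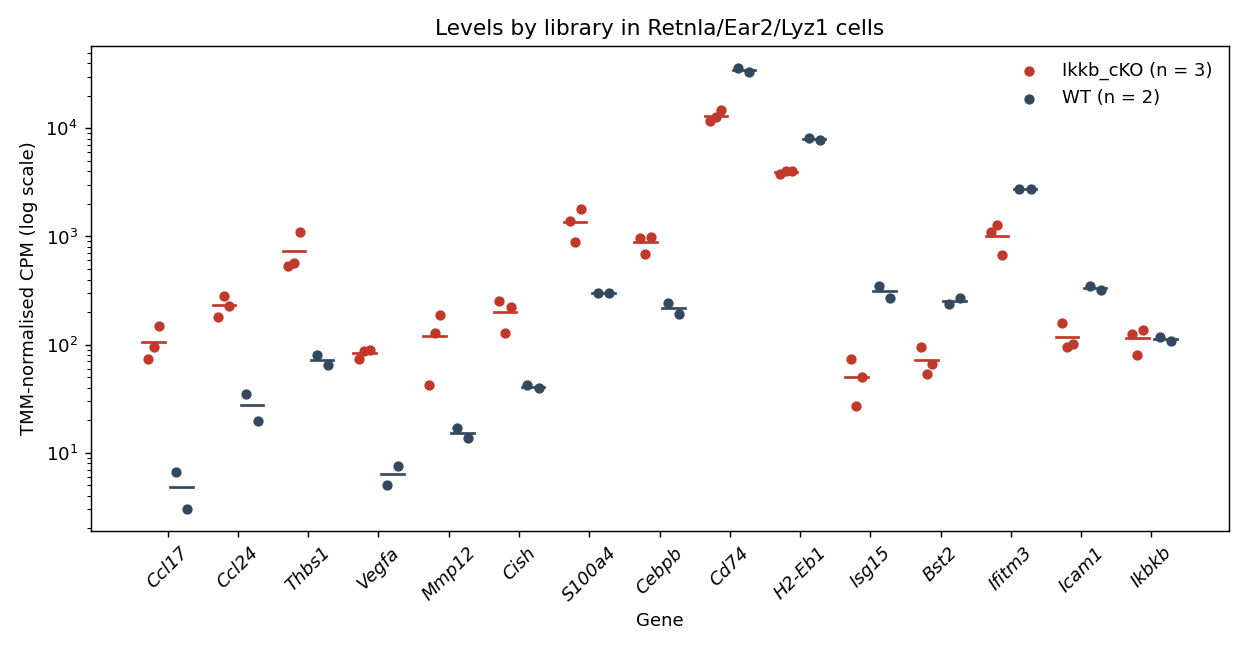
TMM-normalised CPM (log axis) of 15 genes in Retnla/Ear2/Lyz1 cells, 1 point per library with the group mean as a bar, Ikkb_cKO (red) left of WT (dark). The points do not overlap between genotypes except for Ikbkb, and Ccl17 lies between 73.5 and 147 in Ikkb_cKO and at 3.03 and 6.71 in WT. For Ccl17, Ccl24, Thbs1, Vegfa, Mmp12 and Isg15 the lack of overlap was a condition of the choice.

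Of 36 listed interferon-stimulated genes 26 were tested. Of these 12 fell, none rose and 14 did not pass the test, and the median log2 fold change was -1.40. That is 46.2% called, against 12.4% over all genes. Isg15, a ubiquitin-like protein among the genes interferon induces most, had 73.5, 26.9 and 50.2 CPM in Ikkb_cKO and 347 and 273 in WT (log2 -2.67, SE 0.31, edgeR adjusted p = 3.86e-06). Irf7, the transcription factor that amplifies type I interferon, had 1, 1 and 2 UMIs in Ikkb_cKO and 31 and 38 in WT (log2 -3.46, SE 0.56, edgeR adjusted p = 0.000203). Both are among the 12 largest falls, which were drawn only from called genes without overlap between genotypes.

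The more abundant members of the list gave the same order. Ifitm3, which blocks virus entry, had 1091, 1279 and 676 CPM in Ikkb_cKO and 2722 and 2774 in WT (log2 -1.47, SE 0.21, edgeR adjusted p = 8.03e-05). Ifi27l2a had 2004, 1777 and 1401 CPM in Ikkb_cKO and 5166 and 5261 in WT (log2 -1.61, SE 0.18, edgeR adjusted p = 2.94e-06). Bst2, the tetherin that holds virions at the cell surface, had 94.4, 53.9 and 66.3 CPM in Ikkb_cKO and 237 and 273 in WT (log2 -1.90, SE 0.28, edgeR adjusted p = 8.78e-05). These 5 genes kept their calls without any single library. The count of the list fell to 7 of 24 without WT library 1, to 8 of 23 without WT library 2 and to 7 of 22 without Ikkb_cKO library 3, and none of its genes rose in those fits.

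The promoters of Isg15 and Bst2 are shown with GAAANNGAAA, the core of the interferon-stimulated response element, in capitals. They are RefSeq sequences of GRCm38.p6, at chr4:156200769-156201068 on the minus strand and chr8:71537423-71537722 on the minus strand.
Isg15: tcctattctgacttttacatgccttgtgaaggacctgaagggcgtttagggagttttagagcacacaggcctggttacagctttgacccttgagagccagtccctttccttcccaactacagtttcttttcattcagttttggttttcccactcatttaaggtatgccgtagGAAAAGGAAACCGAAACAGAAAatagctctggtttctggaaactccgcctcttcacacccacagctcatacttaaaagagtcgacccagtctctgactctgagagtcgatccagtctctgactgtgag
Bst2: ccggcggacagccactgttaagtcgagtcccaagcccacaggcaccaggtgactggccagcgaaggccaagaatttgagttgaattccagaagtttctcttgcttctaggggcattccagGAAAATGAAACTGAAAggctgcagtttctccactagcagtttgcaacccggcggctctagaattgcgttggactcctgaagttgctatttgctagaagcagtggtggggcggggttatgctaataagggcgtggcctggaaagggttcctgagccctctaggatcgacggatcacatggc
Isg15 holds 3 overlapping matches and Bst2 holds 2. On either strand the motif occurs in 3.44% of the 32851 promoters. Of the 12 interferon genes that fell, 8 have a promoter entry and 5 of these hold the motif. Both motifs were chosen after the values were seen.

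Of 12 tested genes of MHC class II presentation 7 fell, 1 rose and 4 did not pass the test. That is 66.7% called, against 12.4% over all genes. Cd74, the invariant chain that escorts class II molecules, had 11774, 12655 and 14905 CPM in Ikkb_cKO and 36101 and 33361 in WT (log2 -1.40, SE 0.16, edgeR adjusted p = 4.53e-06). H2-DMb1, which loads peptides onto class II, had 516 ± 41.7 CPM in Ikkb_cKO and 1290.2 ± 18.8 in WT (log2 -1.31, SE 0.18, edgeR adjusted p = 4.53e-05). H2-Aa, a chain of the class II molecule itself, had 5121, 5459 and 7379.6 CPM in Ikkb_cKO and 10823 and 10498 in WT (log2 -0.83, SE 0.17, edgeR adjusted p = 0.00308), and its call ended without WT library 1 (adjusted p = 0.0657). The list gave 3 falls of 10 without WT library 1 and 4 of 11 without WT library 2, and no rise in either fit.

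In the wider Lyz2 gate Cd74 was not past the threshold, at 20348 ± 2348 CPM in Ikkb_cKO and 27804 ± 1087 in WT (log2 -0.45, SE 0.15, edgeR adjusted p = 0.0578). That gate mixes sets whose shares differed by genotype. In MHC class II high cells Ccl6 and Cd74 together stood at 26842 to 28559 CPM in Ikkb_cKO and at 52204 and 55165 in WT, which was not tested. Of 13 tested class I genes 5 fell, none rose and 8 did not pass the test, or 38.5% called against 12.4% over all genes. Among the 5 was Psmb8, a subunit of the immunoproteasome that interferon induces, at 141 ± 4.60 CPM in Ikkb_cKO and 398 ± 31.8 in WT (log2 -1.48, SE 0.23, edgeR adjusted p = 0.000184). Without WT library 1 the class I count was 2 and without WT library 2 it was 3.

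Ikbkb, the gene floxed in the study, was at 126, 80.8 and 136 CPM in the members of Ikkb_cKO and at 117 and 109 in WT (log2 0.07, SE 0.28, edgeR adjusted p = 0.899). The ranges overlapped. A 3' tag outside the deleted part of the gene would not show its deletion, and the position of the tags was not analysed here. Of 18 tested components of the IKK and NF-kB pathway 2 rose and 1 fell, or 16.7%, near the 12.4% called over all genes. Nfkb1, which encodes p105 and p50, had 280 ± 77.0 CPM in Ikkb_cKO and 108 ± 24.8 in WT (log2 1.42, SE 0.28, edgeR adjusted p = 0.00141). Its call ended without WT library 2 (adjusted p = 0.0871), and without that library none of the 18 passed. Without WT library 1 the list held 1 rise and no fall.

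Known NF-kB targets and genes of classical activation did not share a direction. Of 26 tested genes 5 rose and 6 fell, or 42.3% called against 12.4% over all genes. Icam1, the adhesion molecule for leukocyte integrins, had 157, 94.2 and 102 CPM in Ikkb_cKO and 346 and 321 in WT (log2 -1.58, SE 0.26, edgeR adjusted p = 0.000266). Cd83, a surface protein of activated antigen-presenting cells, was higher, at 868 ± 75.2 CPM in Ikkb_cKO and 440 ± 39.8 in WT (log2 0.98, SE 0.20, edgeR adjusted p = 0.00176), and lost its call without WT library 2 (adjusted p = 0.124). The list gave 3 rises and 1 fall without WT library 1, 1 rise and 2 falls without WT library 2, and 3 falls without Ikkb_cKO library 1 or 3.

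Chemokine ligands were divided. Of 15 tested genes 6 rose and 3 fell, the last count being 0 without WT library 1 and 1 without WT library 2 or Ikkb_cKO library 1. Ccl6, one of the most abundant chemokines of these cells, had 3526, 4012 and 3594 CPM in Ikkb_cKO and 6626 and 5644 in WT (log2 -0.73, SE 0.16, edgeR adjusted p = 0.00556). Its adjusted p was 0.248 without WT library 1 and 0.0541 without WT library 2. Of 7 tested chemoattractant receptors 2 rose and 1 fell, the fall being lost without either WT library, Ikkb_cKO library 1 or Ikkb_cKO library 3. Cxcr4, the CXCL12 receptor, had 115, 101 and 173 CPM in Ikkb_cKO and 30.2 and 43.9 in WT (log2 1.91, SE 0.32, edgeR adjusted p = 0.000369). Ccr2 was not past the threshold (log2 0.51, SE 0.22, edgeR adjusted p = 0.13), although it was without Ikkb_cKO library 3 (adjusted p = 0.00298).

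Lipid, lysosome and eicosanoid genes gave mixed counts. Of 11 tested lipid-handling genes 5 rose and 1 fell, with 1 rise left without WT library 1 or WT library 2 2 without Ikkb_cKO library 1 and 3 without Ikkb_cKO library 3. The one that fell was Pltp, the phospholipid transfer protein, at 735, 646 and 443 CPM in Ikkb_cKO and 1893 and 1712 in WT (log2 -1.62, SE 0.20, edgeR adjusted p = 1.02e-05). Of 21 lysosomal genes 3 rose and 4 fell, and the numbers were 1 and 1 without WT library 1, 3 and 1 without WT library 2 and 2 and 2 without Ikkb_cKO library 1. Lgmn, the protease legumain, was higher (log2 1.43, SE 0.27, edgeR adjusted p = 0.000989) and Cd68, a lysosomal glycoprotein of macrophages, lower (log2 -1.40, SE 0.26, edgeR adjusted p = 0.000989). Alox5ap, the 5-lipoxygenase activating protein needed for leukotrienes, was the only 1 of 6 tested eicosanoid genes past the threshold, at 651, 889 and 1023 CPM in Ikkb_cKO and 1969.9 and 1891 in WT (log2 -1.15, SE 0.19, edgeR adjusted p = 0.000262). That is 16.7% of the list, near the 12.4% called over all genes.

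**Figure D5:**
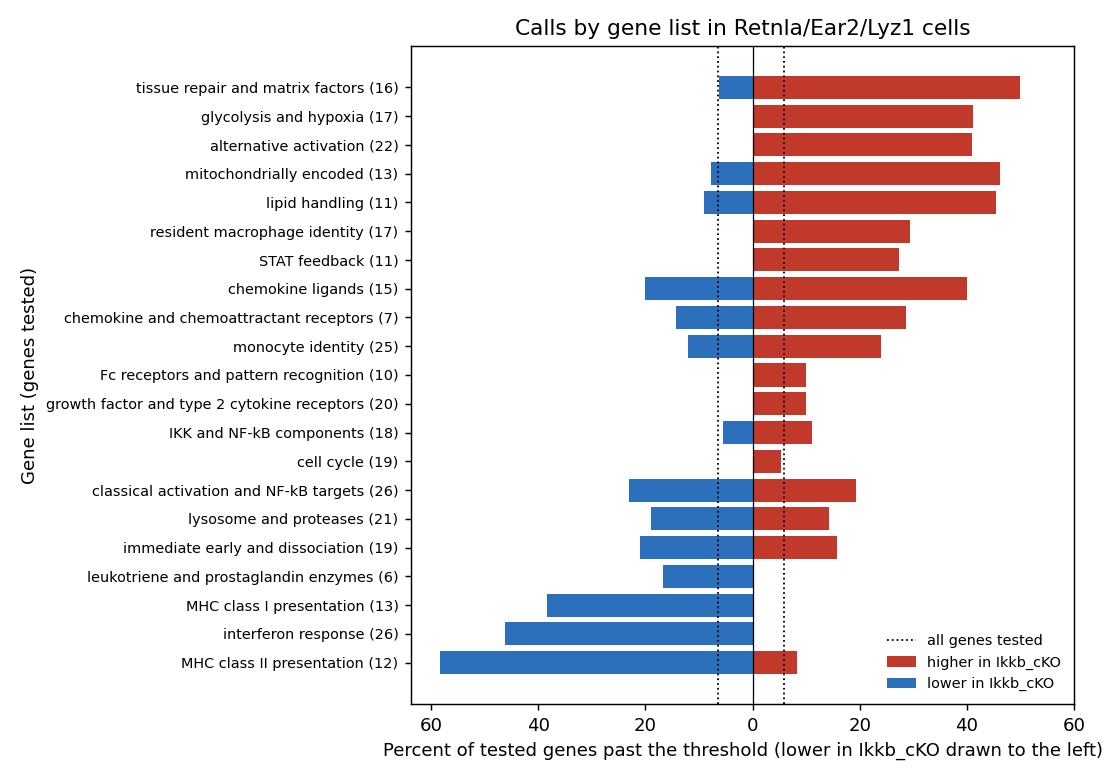
Percent of the tested genes of each list that were higher (red, right) or lower (blue, left) in Ikkb_cKO in Retnla/Ear2/Lyz1 cells, for lists with at least 6 tested genes; the number tested is in brackets and dotted lines mark the 5.90 and 6.46% of all genes tested. Interferon and MHC lists extend to the left and tissue repair, alternative activation and glycolysis to the right. Some genes belong to several lists, so the bars are not independent.

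Some of the largest falls were in genes that are far more abundant in other skin cells. Of the 12 largest falls, 4 had a median at least 10 times higher in all other kept cells than in the members: Cryab, Tpm1, Id3 and Sparc. Sparc, a matrix glycoprotein of fibroblasts, had 21.0, 33.7 and 9.71 CPM in the members of Ikkb_cKO and 40.3 and 114 in WT, and 3945 to 5567 CPM in the other cells of Ikkb_cKO against 12609 and 12964 in WT. Of these calls in edgeR, that of Cryab ended without WT library 1 (adjusted p = 0.0593), that of Sparc without WT library 2 (0.402) or Ikkb_cKO library 3 (0.29), and that of Tpm1 without Ikkb_cKO library 2 (0.0824) or 3 (0.275). The 4 fibroblast markers outside the rule summed to 11.4 to 58.1 CPM in the members of Ikkb_cKO and to 47.0 and 139 in WT, which moved with these falls; their part in them was not tested. Over all calls, 5 of the genes that rose and 12 of those that fell were at least 10 times higher in the other cells. Among the other large falls were Ech1, an enzyme of fatty acid oxidation, with 0, 2 and 7 UMIs in Ikkb_cKO and 64 and 85 in WT, and Gclm, which makes glutathione, with 1, 7 and 17 UMIs in Ikkb_cKO and 114 and 176 in WT. Ech1 had 48.9 to 76.0 CPM in the other kept cells of Ikkb_cKO and 270.1 and 291 in WT, and Gclm 30.2 to 84.5 in Ikkb_cKO and 158 and 197 in WT, and the part of those levels in the falls was not tested.

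Mitochondrially encoded transcripts moved with the genotype too. Of 13 tested, 6 were higher and 1 lower in Ikkb_cKO, beside the higher mitochondrial share per cell given above, and 1 was higher without WT library 1 and 2 without WT library 2. Of 19 tested immediate early and dissociation genes 3 rose and 4 fell, with none and 1 without either WT library and 1 and 4 without Ikkb_cKO library 1. Of 19 cell cycle genes 1 was called, or 5.26%, below the 12.4% over all genes. It was Tuba1b, which rose (edgeR adjusted p = 0.0492) and was not past the threshold without WT library 1, WT library 2 or Ikkb_cKO library 1. The part of RNA quality in the other lists was not tested.

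Whether genotype differences were particular to these cells was tested against the C1q/Pf4 macrophages of the same libraries, with library as a block. Of 5454 genes, 34 (0.623%) had an interaction past the threshold in edgeR, 23 more positive in the members and 11 more negative, and 472 had an unadjusted p under 0.05. Without TMM scaling 34 were positive and 36 negative. Ikkb_cKO libraries 1 and 2 held only 6 and 17 C1q/Pf4 macrophages, so most genes could not be compared closely. Ccl24 stood out. In the C1q/Pf4 macrophages it had 280, 683 and 381 CPM in Ikkb_cKO and 1074 and 877 in WT, while in the members it was higher in Ikkb_cKO, and the difference of the log2 fold changes was 4.56 (SE 0.44, edgeR adjusted p = 9.21e-22). It kept this call without any single library (adjusted p at most 0.00635 in edgeR).

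Ccl3, the chemokine MIP-1 alpha, followed the same pattern. It had 7, 15 and 78 UMIs in the members of Ikkb_cKO and 10 and 26 in WT, while in C1q/Pf4 macrophages it had 0, 6 and 11 UMIs in Ikkb_cKO and 639 and 766 in WT. The interaction was 4.54 (SE 0.53, edgeR adjusted p = 2.55e-14), and 0.0642 without WT library 1. In contrast the interferon genes showed no detectable difference between the sets: Isg15 gave an interaction of 1.13 (SE 0.74, edgeR adjusted p = 0.692) and Bst2 one of 0.12 (SE 0.47, edgeR adjusted p = 0.97). In the C1q/Pf4 macrophages, where 29.2% of 2159 genes tested were called (13.7% higher and 15.5% lower), Isg15 had a log2 fold change of -3.65 and Bst2 of -1.92. Cd74 gave an interaction of -0.49 (SE 0.48, edgeR adjusted p = 0.827) and S100a4 one of 0.56 (SE 0.42, edgeR adjusted p = 0.734). With so few C1q/Pf4 cells in Ikkb_cKO such values do not show that the 2 sets act alike. Without WT library 1 the positive and negative interactions called were 1 and 1, without WT library 2 they were 3 and 0, and without Ikkb_cKO library 3 they were 69 and 3.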

How the data were processed

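The deposited matrices hold whole-number UMI counts per gene and barcode, 1 matrix per library with 31053 genes, and barcodes already called as cells. The submitters' processing notes name Cell Ranger 1.3.0 and mm10, whereas 3.0.1 is the software version per the file headers. Which settings were used to count reads is not given in the sources used here. Promoters came from RefSeq for GRCm38.p6.

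UMIs were summed per library over the gated cells, so libraries and not cells were the replicates. Genes that passed filterByExpr were normalised by TMM and tested with the robust quasi-likelihood test of edgeR 4.0.16 in R 4.3.3, Ikkb_cKO over WT, with Benjamini-Hochberg adjustment over all genes tested and a threshold of 0.05. The fit had no replicate block. TMM-normalised CPM divides counts by the scaled library total, and plain CPM by the total. Cell numbers were tested in edgeR with kept cells as the total. The interaction with C1q/Pf4 macrophages had library as a block. DESeq2 1.42.0 and limma 3.58.1 served as alternatives, beside other filters, cuts and libraries left out. The test code was checked on simulated data.

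Scrublet in scanpy 1.11.5, run per library at 0.008 per 1000 cells, marked 26 of the kept cells (0.245%) and no member, too few to count as a working call, so no doublet was removed. Shares of cells carry counting error only within a library. The symbols Aldoa, Clec7a, Ifi30 and Mx2 were not analysed here.

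The members, gene lists and tests were chosen with earlier results of these data known. Named genes are the marker genes and Ikbkb, the 12 largest rises and falls among called genes whose groups did not overlap and whose mean log2 CPM reached 5, up to 4 genes per list by p, the genes that set members most apart from C1q/Pf4 macrophages, and the 6 interactions with the smallest p. From these a part is named in the text. Some withheld items are not reported here. Replicate numbers are shared between groups, but the deviations of same-numbered libraries were not correlated (r = -0.045 and 0.00954 over 2326 genes), and nothing in the labels ties them.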

Additional observations from a re-analysis of the deposited data

Results flagged for a closer look

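The genotype effect differed between Retnla/Ear2/Lyz1 cells and C1q/Pf4 macrophages by the interaction test in edgeR for 34 genes. All 6 with the smallest p had a more positive difference in the Retnla/Ear2/Lyz1 cells. For Ccl24 the log2 fold changes differed by 4.56 (3.09 in the members and -1.32 in C1q/Pf4 macrophages), and for Ccl3 by 4.54 (1.93 and -2.42).

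For Mucl1, a mucin-like gene of epithelial secretions, the difference was 5.19, but the members held 0, 0 and 265 UMIs in Ikkb_cKO and 5 and 0 in WT, so 1 library carries it, and its adjusted p in edgeR was 1 without Ikkb_cKO library 3 and 0.17 without WT library 1. For Ccl4 it was 2.26, for Ms4a4a 3.75 and for Cd36, a scavenger receptor for lipids, 2.23. These last 3 lost the call without WT library 1 (adjusted p in edgeR 1, 0.769 and 1) and without WT library 2 (0.426, 0.33 and 1), Ms4a4a also without Ikkb_cKO library 3 (0.163). The call of Ccl3 ended without WT library 1 (0.0642). Ikkb_cKO library 1 held only 6 C1q/Pf4 macrophages. The causes were not tested.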

How the results depend on the processing

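The counts of called genes depended most on the WT libraries. Leaving out 1 library at a time, the members gave 86 to 396 higher and 102 to 430 lower genes, the Lyz2 gate 140 to 841 higher and 273 to 818 lower, and the interaction 1 to 69 positive and 0 to 9 negative. Summing the WT libraries gave 101 higher and 111 lower genes in the members, and summing both like pairs, chosen after seeing the data, 111 and 104. The DESeq2 Wald test gave 139 and 176, and equal cell numbers 178 and 176. Apart from the DESeq2 test, which used the same libraries and cells as the main fit, those fits had fewer samples or cells. The causes of the changes were not tested. The interaction gave 14 positive and 3 negative genes under the stricter cell filter, 5 negative without the low-count filter and 36 negative without TMM.

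Replicate numbers did not pair the libraries. The fit with the replicate block called 211 higher and 268 lower genes in the members.

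The share of kept cells gave a log2 difference of 0.2513 to 0.5449 over the fits that left out 1 library, past the threshold only without Ikkb_cKO library 1, and 1.22 as a share of the Lyz2 gate. Ikbkb, not past the threshold, changed sign without the low-count filter (-0.0337), with the replicate block (-0.1775) and with limma voom (-0.0143), and ran from -0.158 to 0.2268 over libraries left out. Ear2 in the Lyz2 gate did so with the block (-0.1014) and ran from -0.0773 to 0.3147. Depth in Ikkb_cKO libraries 1 and 2 limits low genes.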
